A study of Bos taurus with 5 samples.

Results

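The 10 genes described here encode proteins of sperm or of seminal plasma: BSP1, ACRV1, SPA17, PLCZ1, ACR, PRM1, PRM2, TNP1, AKAP4 and ODF2. They were chosen by gene symbol from the 27607 genes of the deposited table, with earlier results from the same 5 libraries known, so their levels and the differences between the groups are given as a description with no p-value of their own. All 10 symbols matched exactly 1 row. The samples were 5 pools of 100 cattle embryos (Bos taurus) developed in vitro, 2 from low-performing (LP) sires and 3 from high-performing (HP) sires. The labels do not say what performance means, and they name addition of recombinant Wnt5A for every pool of both groups, with no dose. The stage is labelled 4 cells, while the series text gives 2 to 4 cells. The labels do not tie the pools to single bulls, fertilisations or cultures, so the spread between pools may be technical. In pools of whole embryos, fewer cells holding a transcript and less of it per cell cannot be told apart.

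Sperm are built in the testis during spermiogenesis, when the acrosome and tail form and histones give way first to transition proteins and then to protamines. Transcription ends before this packing is complete, and a mature sperm carries only a small load of RNA into the egg. Seminal plasma proteins are made by the accessory glands and coat the sperm at ejaculation. At the 4-cell stage a cattle embryo still runs mainly on RNA stored by the oocyte, since the main wave of embryonic transcription comes later.

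Reads counted in genes came to 98684834 and 93659589 in LP pools 1 and 2, and to 113100809, 67248924 and 90237317 in HP pools 1, 2 and 3. Levels are in RPKM, reads per kilobase of gene and per 1000000 reads in genes. The oocyte markers GDF9, BMP15, ZAR1, NLRP5, OOEP and ZP3 lay between 66.0 and 1942 RPKM in all 5 pools. GDF9, BMP15, ZAR1, OOEP and ZP3 were higher in both LP pools than in any HP pool, and NLRP5 overlapped. That arrangement was found in 29.4% of the 12448 genes with at least 1 RPKM in at least 2 pools. OOEP had 216 and 417 RPKM in LP against 157, 114 and 121 RPKM in HP. ZP3 had 219 and 326 RPKM in LP against 202, 185 and 183 RPKM in HP. GDF9 and BMP15 were highest in LP pool 1, and NLRP5 was lowest in LP pool 2.

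Only 4 of the 10 transcripts reached 1 RPKM in at least 2 pools, and those 4 did so in every pool. BSP1, ACRV1, SPA17 and ODF2 were the 4. AKAP4 was found at a low level in all pools, PLCZ1 at the edge of detection, and ACR, PRM1, PRM2 and TNP1 had at most 3 reads in any pool, 2 of them with no read at all. ACR, PRM1, PRM2 and TNP1 were therefore at or near 0 in both groups while ACRV1, also of the sperm head, was not. The origin of the transcripts was not tested, and they are named below by gene. Over all genes in the table, 44.4% had a mean of at least 1 RPKM.

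BSP1 encodes binder of sperm 1, the main protein of bull seminal plasma, which is made in the seminal vesicles and binds choline phospholipids of the sperm membrane. The gene lies on the plus strand of chromosome 18, from 51618421 to 51622953 in the ARS-UCD1.2 build, with 5 exons that sum to 624 bases. BSP1 had 48.3 and 78.2 RPKM in LP pools 1 and 2, against 26.9, 11.6 and 16.2 RPKM in HP pools 1, 2 and 3. Both LP pools were above all HP pools, and within HP pool 1 was 2.31 times pool 2. These levels rest on 2973 and 4570 reads in the LP pools and on 1897, 488 and 910 reads in the HP pools. For HP pool 2 the exact 95% Poisson interval, which covers counting error only, was 10.6 to 12.7 RPKM. The mean was 63.2 ± 21.2 RPKM (SD, n = 2) in LP and 18.2 ± 7.83 RPKM (SD, n = 3) in HP, a ratio of 3.47. On the log2(RPKM + 1) scale the difference LP minus HP was 1.78 ± 0.34 (SE), which placed BSP1 at rank 21 from the top of the 12448 genes fitted. Between 78.2% and 95.2% of all genes in a pool lay at or below its level.

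ACRV1 encodes acrosomal vesicle protein 1, a protein of the acrosome, the enzyme-filled cap of the sperm head. It lies on the minus strand of chromosome 29, from 29060611 to 29067118, with 4 exons and a length of 1160 bases. ACRV1 had 9.03 and 16.6 RPKM in LP pools 1 and 2, against 5.82, 5.91 and 5.67 RPKM in HP pools 1, 2 and 3. The HP pools were nearly level, and LP pool 2 was 1.84 times LP pool 1. The mean was 12.8 ± 5.37 RPKM (SD, n = 2) in LP and 5.80 ± 0.118 RPKM (SD, n = 3) in HP. The log2 difference was 0.97 ± 0.23 (SE), rank 502 from the top of the genes fitted.

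SPA17 encodes sperm autoantigenic protein 17, a protein of the tail's fibrous sheath that binds A-kinase anchoring proteins and is also transcribed in tissues other than testis. It lies on the plus strand of chromosome 29, from 28154527 to 28168618, with 5 exons and a length of 694 bases. SPA17 had 5.40 and 10.6 RPKM in LP pools 1 and 2, against 4.23, 3.04 and 3.39 RPKM in HP pools 1, 2 and 3. The groups did not overlap, with LP pool 1 closer to HP pool 1 than to LP pool 2. The mean was 8.0 ± 3.68 RPKM (SD, n = 2) in LP and 3.55 ± 0.611 RPKM (SD, n = 3) in HP. The log2 difference was 0.93 ± 0.25 (SE), rank 569 from the top.

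ODF2 encodes outer dense fibre protein 2, a structural protein of the sperm tail that is also part of the centrosome in most cells. It lies on the plus strand of chromosome 11, from 99034978 to 99062572, with 23 exon blocks and a length of 4183 bases. ODF2 had 10.74 and 8.52 RPKM in LP pools 1 and 2, against 10.73, 11.9 and 12.3 RPKM in HP pools 1, 2 and 3. LP pool 1 lay just above HP pool 1, so the groups overlapped. The mean was 9.63 ± 1.57 RPKM (SD, n = 2) in LP and 11.7 ± 0.831 RPKM (SD, n = 3) in HP. The log2 difference was -0.26 ± 0.15 (SE).

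**Figure D1:**
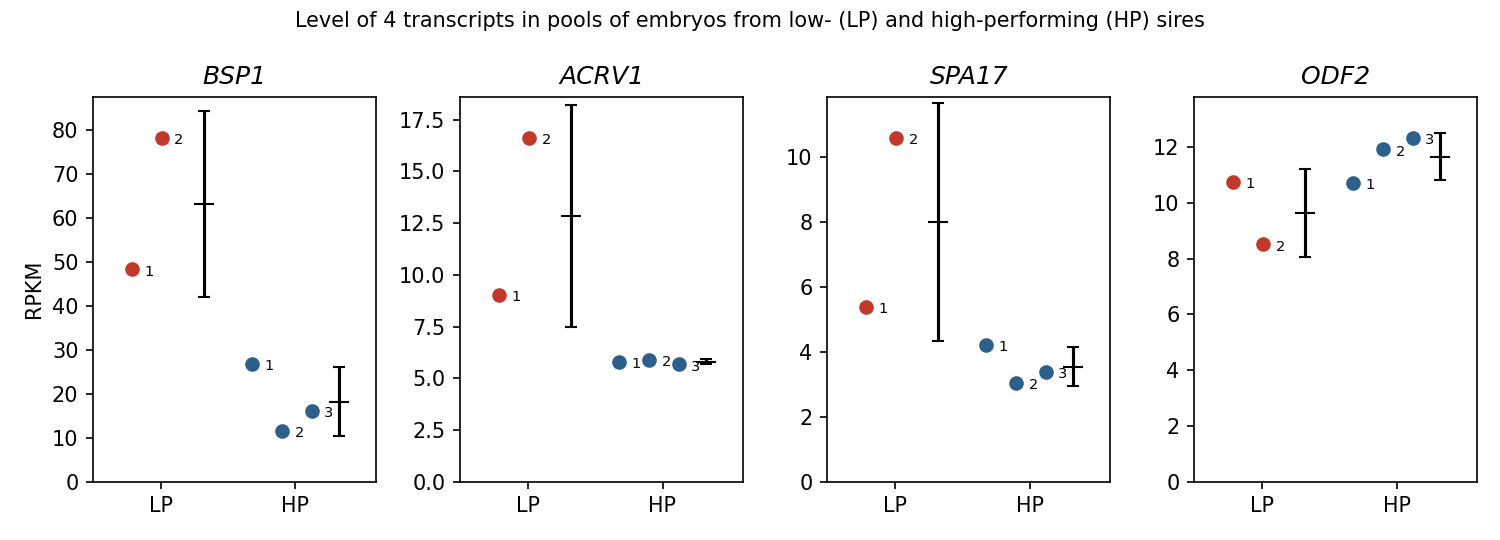
Level in RPKM of BSP1, ACRV1, SPA17 and ODF2 in each pool, low-performing (LP) left and high-performing (HP) right, with the pool number beside each point and the mean ± SD as a bar (n = 2 and n = 3). For BSP1, ACRV1 and SPA17 both LP points lie above all HP points, and for ODF2 LP pool 1, at 10.74 RPKM, lies beside HP pool 1, at 10.73 RPKM.

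The order of the 4 levels was not the same in every pool. LP pool 2 had BSP1 first, then ACRV1, SPA17 and ODF2, whereas in LP pool 1 ODF2 stood second, ahead of ACRV1 and SPA17. ODF2 was also second in HP pools 1 and 3, and it was first in HP pool 2, just ahead of BSP1. In LP the ranges of ODF2, ACRV1 and SPA17 overlapped, and in HP those of BSP1 and ODF2 did. ACRV1 was above SPA17 in all 5 pools. Taken within a pool, the RPKM of BSP1 was 4.49 and 9.18 times that of ODF2 in LP pools 1 and 2, and 2.51, 0.976 and 1.31 times in HP pools 1, 2 and 3. The same ratio for ACRV1 was 0.841 and 1.95 in LP, and 0.542, 0.496 and 0.460 in HP. A scaling factor common to all genes of a library cancels in these ratios. An effect of gene length does not cancel, and BSP1 (624 bases) and ACRV1 (1160 bases) are shorter than ODF2 (4183 bases).

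AKAP4, an anchoring protein of the tail's fibrous sheath encoded on the X chromosome from 87916593 to 87934363, had 0.285 and 0.109 RPKM in LP pools 1 and 2, against 0.302, 0.16 and 0.306 RPKM in HP pools 1, 2 and 3. The groups overlapped, and the reads were 107 and 39 in LP, and 130, 41 and 105 in HP. PLCZ1 encodes the sperm phospholipase C zeta, which sets off the calcium waves that activate the egg. It lies on chromosome 5 from 91335807 to 91384524 and had 5 and 2 reads in LP, and 4, 3 and 11 reads in HP. These counts correspond to 0.0227 and 0.00956 RPKM in LP and to 0.0158, 0.020 and 0.0546 RPKM in HP. At this depth no difference between the groups was detectable for PLCZ1.

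ACR encodes acrosin, the protease of the acrosome, on chromosome 5 from 120013292 to 120020697. It had no read in either LP pool, against 2 reads in HP pool 1 and none in HP pools 2 and 3. PRM1, the protamine that packs most DNA in bull sperm, lies on chromosome 25 from 9936633 to 9937134 and had no read in either LP pool, against 1 read in HP pool 1 and none in the other HP pools. PRM2, the second protamine, on chromosome 25 from 9933491 to 9934241, had no read in any pool. TNP1, transition protein 1, on chromosome 2 from 104859771 to 104860388, also had no read in any pool. The floor of 3 reads is 0.0437 to 0.0735 RPKM for PRM2 and 0.0666 to 0.112 RPKM for TNP1, depending on the pool. The exact 95% Poisson upper limit of a count of 0 was 0.0537 to 0.0904 RPKM for PRM2 and 0.0819 to 0.138 RPKM for TNP1. Every value of these 4 genes was at or below the floor, so no fold change is given.

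**Figure D2:**
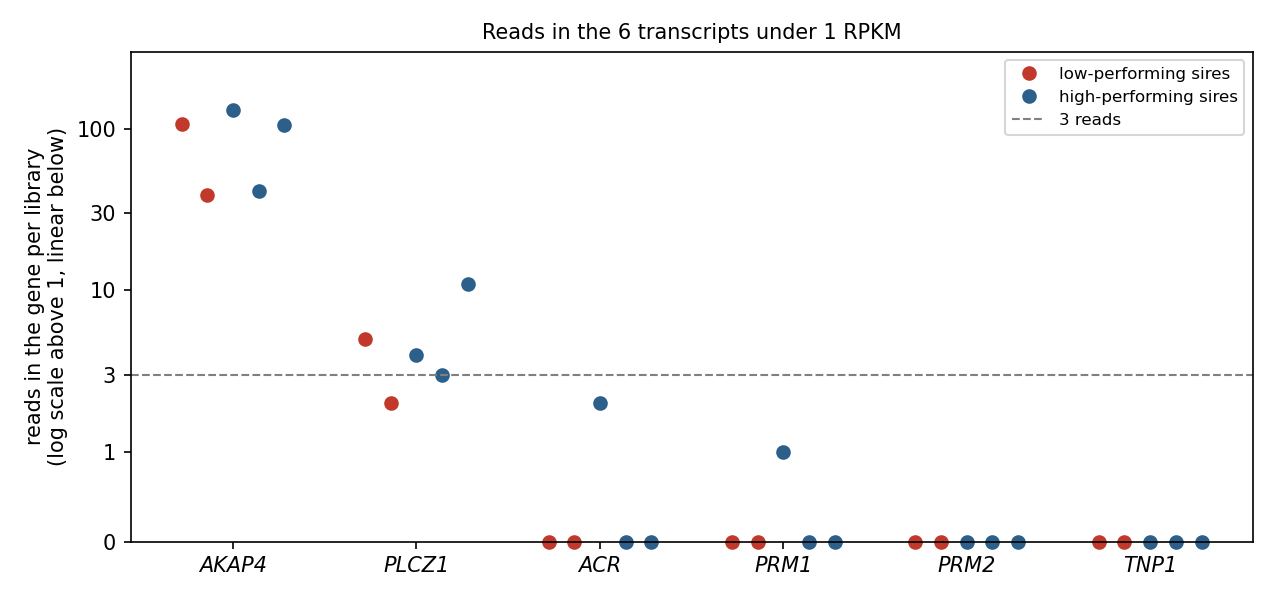
Reads per pool in the 6 transcripts that did not reach 1 RPKM, with low-performing pools in red and high-performing pools in blue, on a scale that is logarithmic above 1 and linear below. AKAP4 had 39 to 130 reads, PLCZ1 2 to 11, and ACR, PRM1, PRM2 and TNP1 stayed under the dashed line at 3 reads.

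The levels of the genomic neighbours were read for each transcript, and none of the 10 genes overlapped another gene of the table. BSP1 lies in a cluster of 4 related or adjoining genes that spans 36.6 kb of chromosome 18. BSP3, another binder of sperm gene, had 22 and 56 reads in LP, against 19, 8 and 3 reads in HP. BSP5 had no read in LP, against 7 reads in HP pool 1 and none in HP pools 2 and 3. An unnamed gene 4776 bases before BSP1 had 8 and 10 reads in LP, against 1, 0 and 0 in HP. LYPD3, the nearest gene on the other side, lay at 0.0295 to 0.138 RPKM. Of these 5 genes, only BSP1 had a level above 1 RPKM. The cluster on chromosome 25 that holds TNP2, PRM3, PRM2 and PRM1 spans 10.7 kb. TNP2 had 2 and 8 reads in LP against 4, 0 and 2 in HP, and PRM3 had 13 and 4 reads in LP against 7, 3 and 0 in HP.

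**Figure D3:**
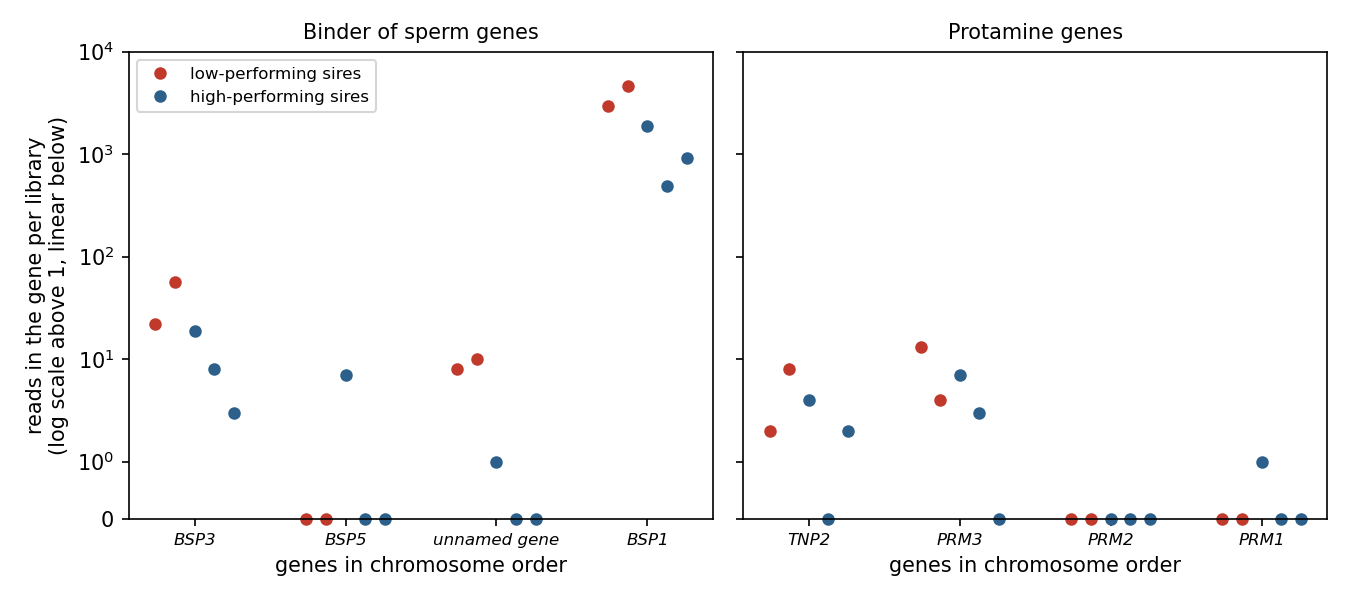
Reads per pool in the genes of the binder of sperm cluster (left) and of the protamine cluster (right), in chromosome order, with low-performing pools in red and high-performing pools in blue, on a scale that is logarithmic above 1 and linear below. BSP1, at 488 to 4570 reads, stands above the other genes of both clusters, the highest of which was BSP3 at 56 reads.

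SPA17 begins 154 bases from SIAE, a sialic acid esterase gene on the opposite strand. SIAE had 6.62 and 4.77 RPKM in LP pools 1 and 2, against 5.46, 5.02 and 5.09 RPKM in HP pools 1, 2 and 3. The level of SIAE was thus close to that of SPA17, while its groups overlapped and LP pool 2 was its lowest pool, where SPA17 was highest. ACRV1 lies 8741 bases from CHEK1, a checkpoint kinase gene with 36.1 and 30.6 RPKM in LP and 37.7, 37.5 and 35.6 RPKM in HP. SSLP1, the gene on its other side, had at most 2 reads in a pool. PLCZ1 starts 47 bases from CAPZA3, a capping protein gene of sperm on the opposite strand, which had 2 reads in HP pool 2 and none in the other 4 pools. AKAP4 has CCNB3, a B-type cyclin, as its nearest named neighbour at a distance of 35636 bases, and CCNB3 lay at 67.2 to 107 RPKM. ODF2 lies 3192 bases before GLE1, an RNA export factor gene on the same strand, which had 55.9 and 44.0 RPKM in LP against 59.1, 65.6 and 66.0 RPKM in HP. CERCAM, on the other side of ODF2, lay at 8.08 to 10.7 RPKM. ACR, which was at or near 0, lies 6667 bases from SHANK3, a scaffold protein gene with 4.23 and 2.68 RPKM in LP against 4.75, 6.39 and 5.25 RPKM in HP.

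The comparison of LP with HP asks whether the performance class of the sire goes with the embryo's RNA. limma, fitted on all 12448 genes with at least 1 RPKM in at least 2 pools, called 0 genes (0.0%) at an adjusted p under 0.05, hence none of the 4 transcripts that entered it. At an unadjusted p under 0.05 it counted 4348 genes (34.9%), while limma voom, run on read numbers recovered from the levels, called 0 as well, with 4413 genes at an unadjusted p under 0.05. With the pool number added as a replicate block, limma called 833 genes (6.69%), BSP1, ACRV1 and SPA17 among them. The labels do not say that pools of the same number belong together. BSP1, ACRV1 and SPA17 were higher in both LP pools than in any HP pool, an arrangement found in 29.4% of all genes fitted, and its opposite in 29.3%. The authors' deposited table gives 2196 of 27607 genes (7.95%) with a false discovery rate under 0.05, 5.51% higher in LP and 2.45% lower. BSP1, ACRV1 and SPA17 are among them, with log2 fold changes of 1.96, 1.14 and 1.17 in the authors' deposited table and false discovery rates of 1.68e-07, 0.000562 and 0.00659. For ODF2 the authors' deposited table gives -0.28 and a false discovery rate of 0.464. Nothing is read from these 3 calls here, because the genes were chosen with the contrast known.

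Library LP pool 2 stood furthest from the other pools in all 4 transcripts, highest for BSP1, ACRV1 and SPA17 and lowest for ODF2. Without LP pool 2 the log2 difference was 1.44 for BSP1, 0.56 for ACRV1, 0.50 for SPA17 and -0.11 for ODF2. Without LP pool 1 it was 2.12, 1.37, 1.36 and -0.41 in the same order, and limma then called 5436 genes (43.7%), BSP1, ACRV1 and SPA17 among them, with the lone LP pool assumed to vary like the HP pools. All 4 differences had the same sign whichever pool was left out. For BSP1, ACRV1 and SPA17 this follows from both LP pools lying above all HP pools, so it adds nothing for them.

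**Figure D4:**
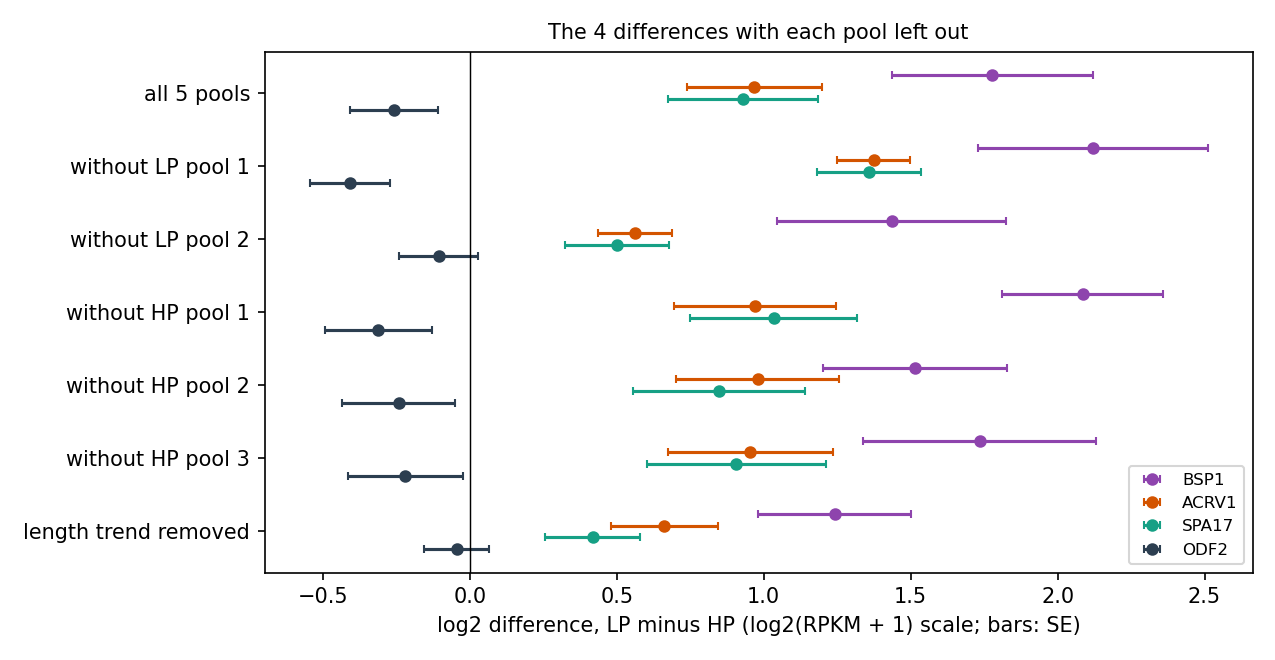
Log2 difference LP minus HP, on the log2(RPKM + 1) scale with its SE from limma, for BSP1, ACRV1, SPA17 and ODF2 with all 5 pools, with each pool left out and after removal of the length trend. BSP1 lies between 1.24 and 2.12 in all 7 rows, and ACRV1 and SPA17 lie nearest to 0 without LP pool 2 (0.56 and 0.50) or with the length trend removed (0.66 and 0.42).

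The differences moved with gene length across the whole table. Genes of at most 1000 bases had a median log2 difference of 0.48 (1693 genes), those of over 1000 and up to 2000 bases 0.18 (3419 genes) and those of over 4000 and up to 6000 bases -0.26 (1547 genes). A trend with length was also present inside the LP group. The median log2 difference of LP pool 2 minus LP pool 1 was 0.37, 0.09 and -0.28 in the same classes. Both LP pools were above all HP pools in 57.6% of genes of at most 1000 bases and in 8.34% of those of over 4000 and up to 6000 bases. BSP1 and SPA17 fall in the shortest class, ACRV1 in the next and ODF2 in the class of over 4000 and up to 6000 bases, whose median equals the difference of ODF2 to 2 decimals. With the trend of each library over gene length removed, the difference was 1.24 ± 0.26 (SE) for BSP1, 0.66 ± 0.18 for ACRV1, 0.42 ± 0.16 for SPA17 and -0.04 ± 0.11 for ODF2. The part of transcript length, or of RNA quality, in the differences was not tested.

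**Figure D5:**
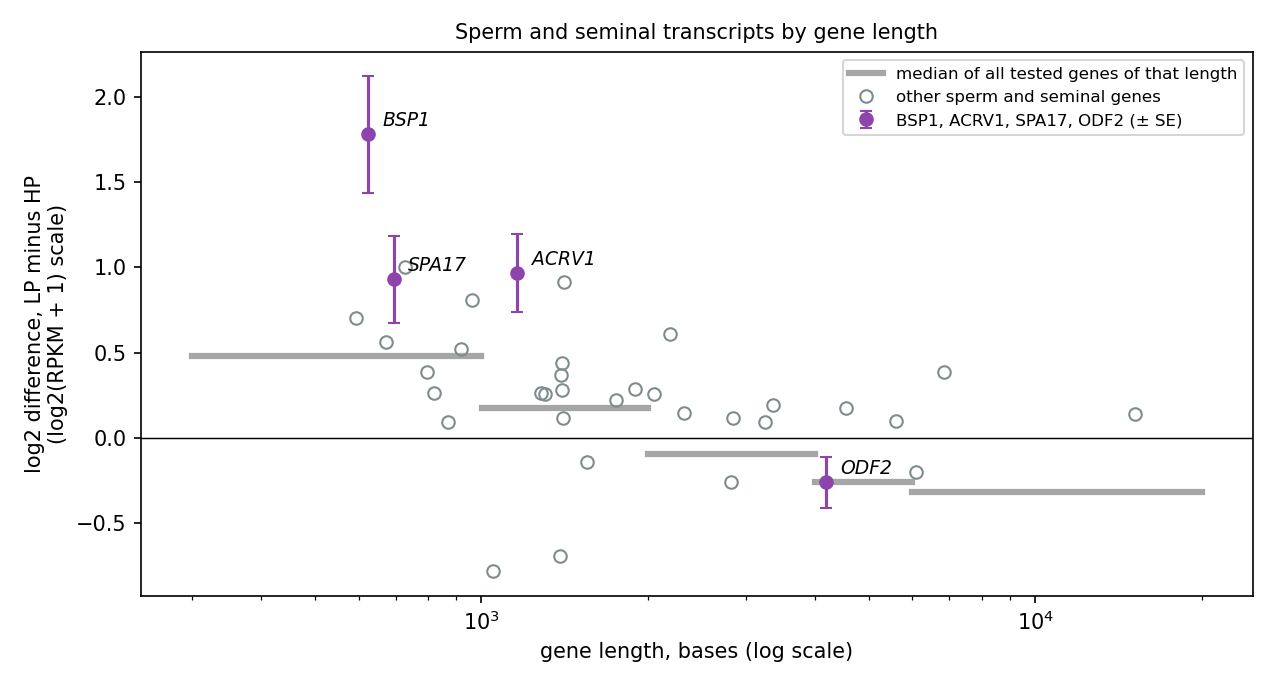
Log2 difference LP minus HP on the log2(RPKM + 1) scale against gene length in bases (log axis) for BSP1, ACRV1, SPA17 and ODF2 (purple, ± SE) and for 32 other sperm and seminal genes past the filter (open circles), with grey bars at the median of all fitted genes in each length class. BSP1 at 1.78 lies above the bar of its class at 0.48, and ODF2 lies on its bar at -0.26.

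Other genes of sperm and semen were read from 7 lists drawn up by role, with earlier results of these data known. The shares below are therefore a description. They hold 132 symbols, of which 116 are in the table, and 106 of those are not among the 10 genes above. Of the 106, 31 had a mean of at least 1 RPKM over the 5 pools and 22 never exceeded 3 reads in a pool. Of the 32 that passed the filter of the fit, 0 were called by limma at an adjusted p under 0.05. Both LP pools were above all HP pools for 20 (62.5%) and below them for 3, while the groups overlapped for 9. Over all genes fitted 29.4% were above and 29.3% below, and the share above was 57.6% among genes of at most 1000 bases and 46.1% among those of over 1000 and up to 2000 bases. Their median log2 difference was 0.26 at a median length of 1405.5 bases, beside -0.03 over all genes fitted. With the length trend removed the medians were 0.16 and 0.01, and without LP pool 2 they were 0.15 and 0.02. Without the seminal plasma and epididymis list, the summed level of the 91 remaining genes was 343 and 416 RPKM in LP, against 316, 286 and 296 RPKM in HP. Of the 91, 60 did not pass the filter. Most of the sum came from LDHC, MNS1, ODF4, SPAG17 and COX6B2, whose levels are given below.

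Among acrosome genes, SPESP1, of the equatorial segment of the sperm head, had 18.8 and 16.1 RPKM in LP against 16.8, 13.6 and 17.9 RPKM in HP, with the groups overlapping. ZPBP, an acrosomal zona pellucida binding protein, had 11.4 and 12.0 RPKM in LP against 9.77, 9.75 and 9.20 RPKM in HP. ACTL7B, an actin-like protein of spermatids, had 2.15 and 3.89 RPKM in LP against 1.29, 0.835 and 1.14 RPKM in HP, a log2 difference of 0.92 ± 0.20 (SE). ZPBP and ACTL7B were higher in both LP pools than in any HP pool, and 6 of the 24 acrosome genes besides ACR and ACRV1 passed the filter. None of the 8 genes listed beside PLCZ1 for the sperm side of gamete fusion passed it. The highest were SPACA6 at 0.754 and 0.749 RPKM in LP against 0.353, 0.626 and 0.777 RPKM in HP, TMEM81 and IZUMO4.

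Genes of sperm chromatin other than the protamines were present in part. H1-6, the testis linker histone, had 4.88 and 9.17 RPKM in LP against 4.00, 3.13 and 4.20 RPKM in HP, a log2 difference of 0.70 ± 0.24 (SE). Its length is 594 bases, and the median difference of fitted genes of at most 1000 bases was 0.48. H1-7, a spermatid linker histone, had 2.58 and 3.96 RPKM in LP against 1.95, 2.37 and 2.37 RPKM in HP. BRDT, the bromodomain protein of the testis, went the other way, with 1.52 and 0.813 RPKM in LP against 2.11, 3.40 and 2.62 RPKM in HP.

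Tail genes held some of the highest levels of the lists. MNS1, a protein of the flagellar axoneme, had 53.3 and 57.3 RPKM in LP against 55.7, 45.4 and 41.3 RPKM in HP. ODF4, another outer dense fibre gene, had 50.6 and 59.4 RPKM in LP against 46.5, 45.5 and 44.8 RPKM in HP, and SPAG17, of the central pair of the axoneme, had 44.2 and 64.4 RPKM in LP against 40.0, 39.8 and 41.8 RPKM in HP. All 3 were above ODF2 in every pool, and MNS1 overlapped between the groups. ROPN1L, a fibrous sheath protein, had a log2 difference of 0.61 ± 0.17 (SE), and RSPH9, of the radial spoke, one of 0.52 ± 0.16 (SE). ROPN1L, at 2191 bases, is in a length class with a median difference of -0.10, and RSPH9, at 920 bases, in one with 0.48. Besides ODF2 and SPA17, 13 tail genes passed the filter, these 5 included. Of the 13, 8 were higher in both LP pools than in any HP pool, 1 was lower in both and 4 overlapped, beside 29.4% higher and 29.3% lower over all genes fitted.

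LDHC, the lactate dehydrogenase of testis and sperm, had 59.6 and 66.4 RPKM in LP against 51.6, 40.2 and 47.5 RPKM in HP, the highest mean of the sperm lists. COX6B2, the testis form of a cytochrome oxidase subunit, had 20.0 and 41.8 RPKM in LP against 14.4, 14.7 and 12.7 RPKM in HP, a log2 difference of 1.0 ± 0.28 (SE). At 728 bases it is in the shortest class, whose median difference was 0.48. ENO4, the sperm enolase, stood at 0.11 ± 0.12 (SE). LRRC52, a partner of the sperm potassium channel, had 7.44 and 14.2 RPKM in LP against 6.34, 4.43 and 5.73 RPKM in HP, while HVCN1, a proton channel, had 13.7 and 8.93 RPKM in LP against 17.1, 18.7 and 19.9 RPKM in HP. CATSPERB, a subunit of the sperm calcium channel, stood at 0.09 ± 0.11 (SE). From the list of seminal plasma and epididymis, 1 gene besides BSP1 passed the filter. This was ELSPBP1, an epididymal sperm-binding protein, at 4.09 and 4.80 RPKM in LP against 3.03, 2.92 and 2.16 RPKM in HP. MSMB, a prostate-secreted protein, lay under the filter at 0.873 and 0.771 RPKM in LP against 0.463, 0.450 and 0.387 RPKM in HP.

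Markers of other cells that the pools could hold were read beside these lists. Of 14 cumulus and granulosa genes, 9 passed the filter, and their summed level over the 14 was 212 and 211 RPKM in LP against 227, 225 and 235 RPKM in HP. Most of that sum was STAR, a cholesterol carrier, at 159 and 158 RPKM in LP and 170, 147 and 171 RPKM in HP. HAS2 and GREM1, cumulus genes, had log2 differences of -0.47 ± 0.19 (SE) and -0.56 ± 0.20 (SE). HAS2 had 22.4 and 15.4 RPKM in LP against 22.9, 27.0 and 29.0 RPKM in HP. GREM1 had 8.70 and 5.48 RPKM in LP against 9.53, 11.9 and 10.7 RPKM in HP. CYP11A1, a steroid-forming enzyme, had 4.52 and 12.5 RPKM in LP pools 1 and 2, against 5.45, 12.9 and 6.59 RPKM in HP pools 1, 2 and 3. HSD3B1, another such enzyme, had 4.10 and 7.24 RPKM in LP against 4.28, 11.2 and 4.52 RPKM in HP. TNFAIP6, a cumulus matrix gene under the filter, had 0.298 and 1.05 RPKM in LP against 0.144, 0.641 and 0.194 RPKM in HP. CYP11A1, HSD3B1 and TNFAIP6, chosen after their values were seen, were high in LP pool 2 and in HP pool 2, and their groups overlapped. HAS2 and GREM1, by contrast, were lowest in LP pool 2, and STAR was lowest in HP pool 2. FSHR, the follicle stimulating hormone receptor, had 2 to 18 reads in a pool. Of 10 blood and immune genes only CSF1R and CD3E passed, the summed level was 19.9 and 17.9 RPKM in LP against 19.1, 16.6 and 18.1 RPKM in HP, and the globin HBB was at 0 in every pool. CD3E, a T cell receptor chain, had 2.30 and 2.00 RPKM in LP against 1.81, 1.01 and 1.56 RPKM in HP, and the globin HBA, under the filter, had 30 and 55 reads in LP against 16, 9 and 21 reads in HP. Both were higher in the LP pools without overlap, which was found in 29.4% of all genes fitted. It was found in 57.6% of those of at most 1000 bases, and HBA has 612 bases. For those of over 2000 and up to 4000 bases, where CD3E falls with 2714 bases, the share was 18.5%. CSF1R overlapped, and 4 of the 9 cumulus and granulosa genes were lower in both LP pools. Being lower in both LP pools was found in 29.3% of all genes fitted. Among those of over 2000 and up to 4000 bases it was 32.4%, and the median length of the 9 was 2938 bases. HAS2 is longer, at 4840 bases. In the class of over 4000 and up to 6000 bases, 55.0% were lower in both LP pools. The part of such cells in the differences of BSP1, ACRV1 and SPA17 was not tested.

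Among fitted genes with a name, those whose profile over the 5 pools was most like each of the 4 were sought. The measure was the root mean square distance between centred log2(RPKM + 1) values. For BSP1 the nearest were MRPL33, SEC61G and MRPS14, at distances of 0.087, 0.089 and 0.093, and MRPL33 had 132 and 229 RPKM in LP against 82.3, 36.3 and 55.0 RPKM in HP. RPL10, CDKN2AIPNL and INAFM1 were nearest to ACRV1, at 0.057, 0.068 and 0.070. The nearest to SPA17 were H2AC5P, GSTM3 and NDUFS8, at 0.011, 0.033 and 0.043. ARF3, B3GLCT and CAP2 were nearest to ODF2, at 0.008, 0.012 and 0.013. Of the 9 genes nearest to BSP1, ACRV1 and SPA17, MRPL33 at 444 bases, SEC61G at 414 and MRPS14 at 622 are, like BSP1 itself, in the class of at most 1000 bases. CDKN2AIPNL, INAFM1 and H2AC5P are in it too, while RPL10 at 1345 bases, GSTM3 at 1268 and NDUFS8 at 1675 are longer. That class holds 1693 of the 12448 genes fitted, those without a name included. ARF3 at 1106 bases, B3GLCT at 1897 and CAP2 at 2322, nearest to ODF2, are shorter than ODF2 at 4183.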

How the data were processed

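Stranded mRNA libraries were made from column-purified RNA of each embryo pool, per the labels' protocols. The tools named are FastQC, featureCounts and edgeR, with the build ARS-UCD1.2, per the submitters' processing notes. Not given in the sources used here: aligner, tool versions and strand setting. The authors deposited RPKM per library and gene, which times length in kilobases summed to 1000000 in each library, and log2 fold changes, mean log2 CPM, a likelihood ratio score, p-values and their FDR. A positive deposited log2 fold change means higher in LP. Whole reads were worked out from RPKM, and 100% of values were whole within a relative tolerance of 1e-06. Levels were tested with limma 3.58.1 (R 4.3.3), intensity trend, on log2(RPKM + 1), which understates the change of low genes; the filter was 1 RPKM in at least 2 libraries and the two-sided threshold 0.05 after Benjamini-Hochberg adjustment over 12448 genes. Intervals are exact Poisson at 95%, and the floor is 3 reads.

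The members and lists were chosen with earlier results of these data known. The text names all members, up to 3 other genes per list with the highest mean and up to 2 with the largest non-overlapping difference. It also names neighbouring genes and, for members past the filter, the 3 nearest profiles among genes with a name. Other genes named were chosen after their values were seen. Of 176 list symbols, 159 were matched. As alternatives, the fit was repeated with voom, with the replicate block, without each library in turn, with a loess length trend (span 0.5) taken out, with quantile or trimmed-mean scaling, without the intensity trend, with pseudocounts 0.1 or 0.5, and with either no filter or a mean of 5 RPKM. All members matched the RefSeq table by symbol, which served for names only. Figures were drawn with matplotlib 3.10.9.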

Additional observations from a re-analysis of the deposited data

How the results depend on the processing

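The 15 alternatives left the sign of the difference unchanged for BSP1 (1.24 to 2.12), ACRV1 (0.56 to 1.37), SPA17 (0.42 to 1.36) and ODF2 (-0.41 to -0.04). Not all of them could change it. Another filter or no intensity trend leaves the difference itself as it is, and the replicate block gave the same differences as leaving out HP pool 3. The value moved by more than 1 SD between replicates under 0 of the 15 alternatives for BSP1, 2 for ACRV1, 3 for SPA17 and 3 for ODF2. These were the fits without either LP pool and, for SPA17 and ODF2, with the length trend removed. The SD is each gene's own, 0.55 for BSP1, 0.33 for ACRV1, 0.38 for SPA17 and 0.15 for ODF2. A shift that counts for ODF2 may thus not count for BSP1, which went from 1.78 to 1.24 with the length trend removed. The number of genes called was 0 with all pools and 0 to 5436 with a pool left out, 5436 being without LP pool 1, where 1 LP pool remains. With no filter on low values it was 36, none of them among the 4, in a fit that included 27607 genes. The share of genes whose groups did not overlap was 58.7% and 63.8% to 85.1% with a pool left out, since fewer pools are compared. The number of other sperm and seminal genes higher in LP without overlap was 20 of 32 and 20 to 24 with a pool left out, beside 29.4% and 31.5% to 37.1% of all genes fitted. The number with a mean level above the cut-off was 31 at 1 RPKM, 37 at 0.5 RPKM and 11 at 5 RPKM.

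Pool numbers are shared by the groups, but nothing in the labels says that they mark a shared bull or day, and HP pool 3 has no partner. With the replicate block limma called 833 genes (6.69%), BSP1, ACRV1 and SPA17 among them, in a fit where HP pool 3 adds nothing to the difference. Deviations from the group means correlated at -0.48 for the pools numbered 1 and at -0.26 for those numbered 2, across genes. As the deviations of the 2 LP pools mirror each other, LP pool 2 with HP pool 1 gave 0.48 and LP pool 1 with HP pool 2 gave 0.26. Depth limits only ACR, PRM1, PRM2, TNP1 and PLCZ1, whose counts lie at or near the floor.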

Other observations

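Transcripts of the egg that act downstream of, or beside, PLCZ1 were present while PLCZ1 itself was at the edge of detection. Of 19 such genes in the table, 12 passed the filter, of which 0 lay higher and 6 lower in both LP pools than in the HP pools, beside 29.4% and 29.3% of all genes fitted; limma called 0 of them. Their median log2 difference was -0.24 at a median length of 4143 bases, and 55.0% of fitted genes of over 4000 and up to 6000 bases were lower in both LP pools. WEE2, an oocyte kinase that holds meiotic arrest, had 485 and 456 RPKM in LP against 555, 414 and 456 RPKM in HP. FBXO43, the inhibitor that keeps the egg in metaphase, had 55.2 and 41.3 RPKM in LP against 57.4, 56.4 and 60.1 RPKM in HP. ITPR1, the calcium release channel, had 9.98 and 8.44 RPKM in LP against 13.8, 13.5 and 11.2 RPKM in HP, and CAMK2G, a calcium-dependent kinase, had 14.0 and 8.40 RPKM in LP against 16.8, 19.7 and 21.2 RPKM in HP. PLCG1, another phospholipase C, had 24.9 and 14.5 RPKM in LP against 24.6, 22.3 and 18.7 RPKM in HP, and its groups overlapped.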
